A study of Mus musculus with 6 samples.

Results

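Complement is a cascade of plasma proteases, pattern-recognition proteins and regulators, and 37 of the 54532 genes in the count table were taken as its components and regulators by gene symbol. All 37 symbols were found, 1 gene each. Bulk RNA sequencing was done on the ischemic lobe of mouse livers that were cut off from blood for 1 h, kept warm, and reperfused for 12 h. IRF8-cKO livers came from C57bl/6 mice with a hepatocyte-specific deficiency of the transcription factor IRF8, and WT livers from wild-type C57bl/6 mice. Both genotypes underwent the injury, with 3 libraries each, and sets of 3 values stand by ascending library number: IRF8-cKO-71, IRF8-cKO-88, then IRF8-cKO-106, and WT-14, WT-44, then WT-77. Neither the Cre driver and targeted allele nor sex and age are stated in the sources used here, and no unoperated liver was analysed here. Nothing states that each library is a separate animal, so p-values measure the spread between these libraries, which may be technical.

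Complement is started by C1q bound to antibody (classical pathway), by lectins bound to sugars (lectin pathway) or by slow turnover of C3 amplified by factor B (alternative pathway). All 3 meet at the cleavage of C3, which coats targets and releases the anaphylatoxin C3a, and C5 to C9 then build the membrane attack complex. Hepatocytes make most plasma complement, while C1q and some recognition proteins come from macrophages, and complement activation is known as a part of ischemia/reperfusion injury in liver.

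Libraries held 14758237 to 16805830 counts. Levels are given as CPM, the count divided by the library total in units of 1e+06 after correction of that total by TMM factors, and groups were compared with edgeR's quasi-likelihood test, adjusted over 13134 genes. Of these, 182 genes (1.39%) passed at an adjusted p under 0.05. The targeted gene Irf8 stood at 5.67, 6.72 and 4.17 CPM in IRF8-cKO libraries, against 9.32, 9.50 and 10.3 CPM in WT libraries (log2 fold change -0.81, SE 0.33, adjusted p = 0.174). Library IRF8-cKO-71 stood apart from the rest. Alb, the albumin gene, was at 46924 to 58879 CPM in IRF8-cKO and 61800 to 88708 CPM in WT livers. Apob, another hepatocyte marker, went the other way, at 3795 to 6720 CPM in IRF8-cKO and 2195 to 3749 CPM in WT livers. Of 9 tested hepatocyte markers 4 had positive and 5 negative log2 fold changes. In edgeR 0 passed, against 1.39% of all genes tested, and 1 had an unadjusted p under 0.05, against 24.1%. Their summed level was 78271 to 105194 CPM in IRF8-cKO and 101294 to 139339 CPM in WT livers, with Alb as its largest part.

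Mbl2, the gene of mannose-binding lectin C, was the member that passed in edgeR, at a 3.00-fold lower level in IRF8-cKO livers. Its adjusted p of 0.0408 was close to the threshold, and the call was lost in several alternatives given below. C3 was the most abundant member by reads and had its 3 IRF8-cKO values above all WT values, without passing the test. Of the 37 members, 36 passed the filter on low counts and Cfd did not. In edgeR 1 of 36 was lower and 0 were higher, where 0.937% of all genes tested were lower and 0.449% higher. The median log2 fold change was 0.05 over the 36 members and 0.03 over all genes tested. At an unadjusted p under 0.05 there were 4 of 36 members, Mbl2, C8g, C3 and C2, against 24.1% of all genes tested. DESeq2 called 1 member higher (C3) and 2 lower (Mbl2 and C8g), where it called 4.67% of all genes tested higher and 6.17% lower. With limma-voom 1 of 36 members was called, Mbl2, against 0.845% of all genes tested. For 9 of 36 members the groups' CPM ranges were separate, against 28.9% of all genes tested. Of these members 1 was higher, against 14.4% of all genes tested, and 8 were lower, against 14.5%. The lower count was 3 with library totals not corrected for composition, namely Mbl2, C8g and C2. With those totals C1ra, C1s1, C9, C5ar1 and Cd59a overlapped between groups. Whether the complement genes differ as a set from other genes was not tested.

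**Figure D1:**
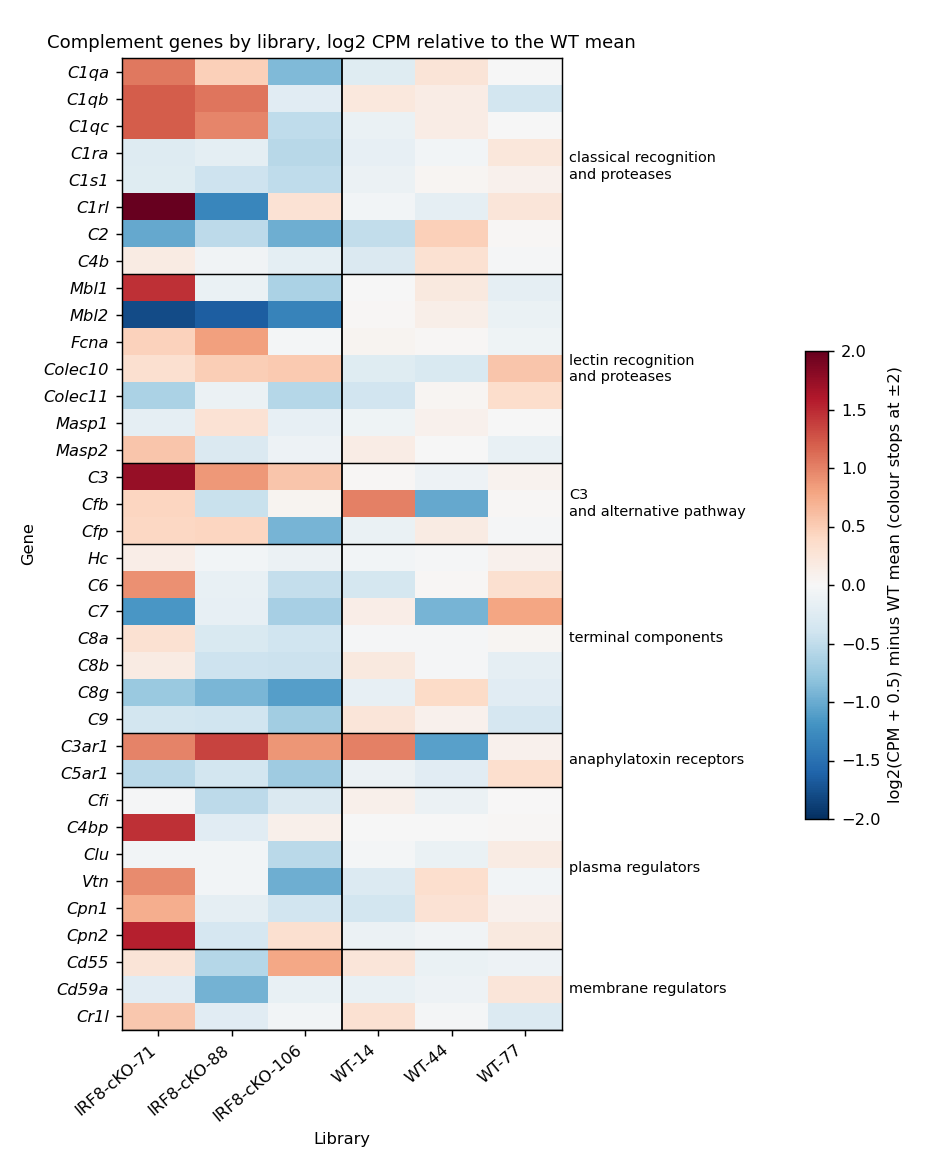
Heat map of the 36 tested complement genes (rows, by role) in the 6 libraries (columns, IRF8-cKO left of WT). Colour is log2(CPM + 0.5) minus the mean of the 3 WT libraries. Mbl2 is blue in all 3 IRF8-cKO libraries, C3 is red in all 3, and IRF8-cKO-71 holds the highest value for 15 of 36 genes.

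Promoters of Mbl2, its paralog Mbl1 and C3 are shown because Mbl2 passed the test, Mbl1 did not, and C3 had the highest level in reads. Each window runs from 250 bases before to 50 bases after the RefSeq transcription start, 5′ to 3′ on the gene's strand, in build GRCm38.p6 (mm10). Capitals in the first pair mark the longest run that both share, 13 bases, which begins 57 bases before the start in Mbl2 and 23 bases before it in Mbl1. That run is in 3 of 32851 RefSeq windows searched on both strands, those of Mbl1, Mbl2 and Slc25a53. In C3 they mark a match to TTGCNNAA, a form of the C/EBP motif bound by liver and acute-phase factors, which begins 45 bases before the start.
Mbl2 promoter, chr19:30232678-30232977, plus strand: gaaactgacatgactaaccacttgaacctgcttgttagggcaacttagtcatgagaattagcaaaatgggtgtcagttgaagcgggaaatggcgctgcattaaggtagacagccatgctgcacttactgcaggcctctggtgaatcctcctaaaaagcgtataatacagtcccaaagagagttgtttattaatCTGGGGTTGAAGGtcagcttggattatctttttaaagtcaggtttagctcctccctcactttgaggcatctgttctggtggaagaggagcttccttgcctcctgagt
Mbl1 promoter, chr14:41151206-41151505, plus strand: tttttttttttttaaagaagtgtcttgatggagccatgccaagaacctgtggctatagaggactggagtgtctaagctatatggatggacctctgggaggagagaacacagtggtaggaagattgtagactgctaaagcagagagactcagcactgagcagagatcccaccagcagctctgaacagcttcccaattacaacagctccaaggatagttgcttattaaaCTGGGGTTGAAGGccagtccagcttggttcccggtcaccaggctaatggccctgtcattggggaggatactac
C3 promoter, chr17:57228087-57228386, minus strand: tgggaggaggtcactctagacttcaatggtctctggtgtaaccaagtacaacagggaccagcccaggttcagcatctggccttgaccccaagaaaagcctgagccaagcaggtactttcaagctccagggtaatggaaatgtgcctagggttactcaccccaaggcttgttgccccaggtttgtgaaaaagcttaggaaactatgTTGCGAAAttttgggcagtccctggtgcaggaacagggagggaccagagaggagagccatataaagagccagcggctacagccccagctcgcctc

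RefSeq windows were at hand for 29 of 37 members, 31 windows in all, and 6 motifs were searched on both strands. The C/EBP form was in 6 of the 31 member windows (C1ra, C1rl, C1s1, C3, C9 and Cpn2) and in 10.8% of all windows. TTCNNNGAA, a form bound by STAT factors, was in 7 (C1ra, C7, C8a, Colec11, Cpn2, Masp2 and Vtn) and in 8.30% of all windows. A form bound by IRF factors, GAAA, any 2 bases and GAAA again, was in 3 (Cd59a, Colec11 and Vtn) and in 3.44% of all windows. The NF-kB form, GGG, any 2 bases and TTTCC, was in 1 member window, that of C3ar1, and in 1.63% of all windows. The HNF1 form, GTTAAT, any base and ATT, was in 2, those of C4bp and Hc, and in 0.399% of all windows, while CAAAGTCCA (HNF4) was in 0 of the 31 and in 0.475% of all windows. In Colec11 the STAT and IRF matches overlap, and these matches are letters in a window and show no binding.

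Lectin pathway recognition begins with Mbl1 and Mbl2, the mouse mannose-binding lectins A and C, which bind microbial and altered self sugars and are secreted mainly by hepatocytes. Mbl2 (ENSMUSG00000024863, mm10 chromosome 19, 30232928 to 30239685, plus strand) stood at 87.0, 96.3 and 119 CPM in IRF8-cKO libraries, against 307, 327 and 275 CPM in WT libraries. Every IRF8-cKO library was below every WT library, and the groups were far apart relative to the spread within them, at 101 ± 16.7 and 303 ± 26.5 CPM (SD, n = 3 each). On the log2 scale Mbl2 fell by 1.59 with an SE of 0.28 (adjusted p = 0.0408 in edgeR; 5.60e-06 in DESeq2, which called 10.8% of all genes tested). The call was lost without IRF8-cKO-106 (-1.71, adjusted p = 0.0700), WT-14 (-1.58, 0.0557), WT-44 (-1.53, 0.176) or WT-77 (-1.66, 0.170), with library totals not corrected for composition (-1.33, 0.0748), and with a correction for gene length (-1.24, 0.0745). All of these alternatives gave a lower level in IRF8-cKO. In bulk tissue, fewer cells of a type and less RNA per cell cannot be told apart.

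Mbl1 did not pass the test. It stood at 334, 110.3 and 77.7 CPM in IRF8-cKO libraries, against 119.7, 138 and 106.4 CPM in WT libraries (log2 fold change 0.52, SE 0.49, adjusted p = 0.538; -0.36 without IRF8-cKO-71). Only IRF8-cKO-71 was above the WT libraries, and IRF8-cKO-106 was below them. Because it is taken within a library, the ratio of Mbl1 to Mbl2 reads does not depend on scaling. It was 3.84, 1.15 and 0.651 in the IRF8-cKO libraries, against 0.389, 0.422 and 0.387 in WT libraries. The ratios did not overlap, and an exact two-sided permutation test of the log2 ratio over 6 libraries gave p = 0.1, the smallest that 3 against 3 allows (0.125 adjusted over the 10 gene pairs computed). All 10 pairs were chosen after their values were seen. The adjustment does not correct for that choice, so the p-values of ratios here and below only describe them.

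The other lectin pathway genes gave no call. Fcna, encoding ficolin A, which in mouse is made by macrophages, stood at 22.9, 29.9 and 16.1 CPM in IRF8-cKO libraries, against 17.3, 16.8 and 15.7 CPM in WT libraries (log2 fold change 0.47, SE 0.29, adjusted p = 0.338). Its 3 WT values lay close together and the value of IRF8-cKO-106 lay among them. Masp1, encoding a protease bound to these lectins, had nearly the same mean in both groups. It stood at 146, 203 and 148 CPM in IRF8-cKO and 156, 177 and 165 CPM in WT libraries (166 ± 32.8 and 166 ± 10.5 CPM, SD, n = 3 each). Masp2, the protease that cleaves C4 and C2, averaged 79.7 ± 25.9 and 74.5 ± 7.83 CPM in IRF8-cKO and WT livers. Of its exon bases in GENCODE M21, 54.9% lie also in exons on the opposite strand. The strand setting of the counting is not given in the sources used here, so the Masp2 count is uncertain. Colec10 and Colec11, encoding collectins of liver and kidney, had log2 fold changes of 0.41 and -0.46 (adjusted p = 0.454 and 0.356), and their groups overlapped.

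**Figure D2:**
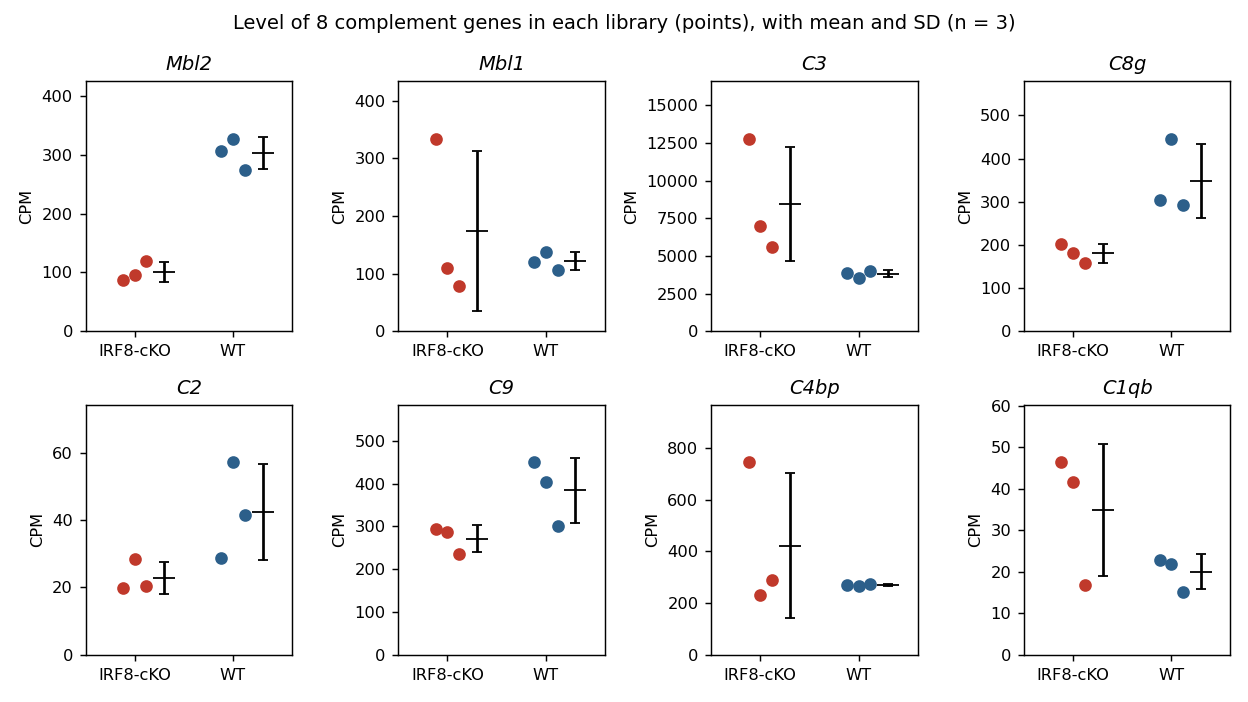
CPM of 8 complement genes in each library, IRF8-cKO (red) left of WT (blue), with the mean and SD of 3 libraries beside the points. Mbl2 and C8g are lower and C3 is higher in all 3 IRF8-cKO libraries; Mbl1, C4bp and C3 have their highest point in IRF8-cKO-71.

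C3, the component on which all pathways converge (ENSMUSG00000024164, chromosome 17, 57203970 to 57228136, minus strand), was at 12773, 6967 and 5599 CPM in IRF8-cKO libraries, against 3883, 3555 and 4011 CPM in WT libraries. All IRF8-cKO libraries were above all WT libraries, and the IRF8-cKO values were spread widely (8446 ± 3809 and 3817 ± 235 CPM, SD, n = 3 each). The log2 fold change of 1.15 (SE 0.39) did not pass in edgeR (adjusted p = 0.128). It passed in DESeq2 (1.14, adjusted p = 0.0259) and without the low-count filter (1.16, 0.0380). C3 alone made up 48.2%, 43.4% and 44.5% of the reads of all 37 members in IRF8-cKO libraries, against 29.1%, 24.2% and 27.998% in WT libraries. Members together took 2.56%, 1.59% and 1.65% of all counts in IRF8-cKO, against 1.43%, 1.15% and 1.35% in WT libraries. These shares are of library totals not corrected for composition, and C3 is part of them. TMM factors were 0.966, 0.990 and 1.32 in IRF8-cKO and 1.07, 0.786 and 0.942 in WT libraries. Divided by these factors, the shares overlapped between groups, as did the uncorrected shares without C3. Relative to C4b, the read ratio of C3 was 12.1, 7.75 and 6.77 in IRF8-cKO and 5.02, 3.03 and 4.30 in WT libraries (exact permutation p = 0.1, the smallest possible; 0.125 adjusted over 10 pairs). The ratio of C3 to Hc, the C5 gene, was 29.8, 18.4 and 15.4 in IRF8-cKO against 10.3, 9.23 and 9.64 in WT libraries, with the same p values. Both pairs were chosen after their values were seen.

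Of the alternative pathway genes besides C3, Cfb and Cfd had few reads. Cfb, encoding factor B, had 14, 4 and 12 reads in IRF8-cKO libraries, against 25, 0 and 8 reads in WT libraries. Its count is uncertain: 79.5% of its exon bases in GENCODE M21 lie also in exons of Gm20547, a gene on the same strand that spans Cfb and part of C2 and has 0 reads in all 6 libraries, and how the authors' counting treated such bases is not given in the sources used here. Its level was 0.555 ± 0.308 CPM in IRF8-cKO and 0.688 ± 0.778 CPM in WT livers (SD, n = 3 each). Cfb stayed among the 36 members tested, and its fold changes carry this uncertainty. Cfd, encoding factor D, an adipocyte product in mice, had 9, 1 and 1 reads in IRF8-cKO and 2, 15 and 5 reads in WT libraries and was not tested. Of 7 adipocyte and mesothelial markers, Adipoq had 0 reads in all libraries and 2 were tested, Fabp4 and Car3. Fabp4 had a log2 fold change of 0.70 (adjusted p = 0.258 in edgeR), and Car3 had -2.24 (adjusted p = 0.0311). The summed level of the 7 was 247 to 302 CPM in IRF8-cKO and 585 to 832 CPM in WT livers. Their part in the Cfd counts was not tested. Cfp, encoding properdin, which stabilizes the alternative convertase and is made by myeloid cells, averaged 16.5 ± 7.53 and 15.5 ± 1.64 CPM in IRF8-cKO and WT livers (log2 fold change 0.09, SE 0.38).

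Among classical pathway genes, C1qa, C1qb and C1qc encode the 3 chains of C1q, which binds antibody on targets and dying cells. C1qa stood at 49.5, 32.9 and 12.5 CPM in IRF8-cKO libraries, against 19.9, 28.1 and 23.4 CPM in WT libraries. C1qb stood at 46.4, 41.8 and 16.8 CPM in IRF8-cKO and at 23.0, 22.0 and 15.1 CPM in WT libraries, and C1qc at 38.4, 32.6 and 11.3 CPM in IRF8-cKO and 14.9, 18.1 and 16.2 CPM in WT libraries. In all 3 genes IRF8-cKO-71 and IRF8-cKO-88 were above every WT library while IRF8-cKO-106 was not, so the groups overlapped. The log2 fold changes were 0.41 (SE 0.43), 0.80 (SE 0.38) and 0.74 (SE 0.40), with adjusted p = 0.581, 0.226 and 0.285 in edgeR.

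Markers of Kupffer cells, the resident liver macrophages and a known source of C1q, were also at higher summed levels in IRF8-cKO. Of 10 markers 0 passed in edgeR, against 1.39% of all genes tested. At an unadjusted p under 0.05 there were 7, all higher, against 12.1% of all genes tested. All 10 had positive log2 fold changes, as had 6768 of the 13134 genes tested. The summed level of the markers was 168 to 314 CPM in IRF8-cKO and 81.4 to 107 CPM in WT livers, with no marker at 0. Their part in the C1q values was not tested. Per read of Clec4f, a Kupffer cell lectin receptor, C1qa stood at 0.764, 0.727 and 0.536 in IRF8-cKO libraries, against 1.03, 0.942 and 1.20 in WT libraries (exact permutation p = 0.1, the smallest possible; 0.125 adjusted over 10 pairs). For C1qb and C1qc the corresponding ratios overlapped between groups (exact permutation p = 0.5 and 0.2). The pairs with Clec4f were also chosen after their values were seen. Clec4f had a log2 fold change of 0.96, and the 10 markers ranged from 0.41 to 1.76. Ratios to the other Kupffer cell markers were not computed.

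C1ra and C1s1, the C1r and C1s protease genes, were each lower in all 3 IRF8-cKO libraries than in any WT library, by little. With library totals not corrected for composition the groups overlapped, at log2 fold changes of -0.13 and -0.17. C1ra averaged 152 ± 19.3 and 191 ± 27.0 CPM in IRF8-cKO and WT livers, and C1s1 averaged 159.9 ± 14.8 and 209 ± 15.1 CPM (SD, n = 3 each; adjusted p = 0.465 and 0.376). Of the exon bases of C1s1, 18.4% lie also in exons on the opposite strand, and the strand setting of the counting is not given. The close copies C1rb and C1s2 had 0 to 4 reads a library. C1rl, encoding a C1r-like protease of liver, stood at 132 CPM in IRF8-cKO-71 but 10.1 and 31.4 CPM in the other IRF8-cKO libraries, against 24.6, 22.5 and 30.3 CPM in WT libraries. It was singled out after its values were seen, and its log2 fold change of 1.16 (SE 0.75) became -0.30 without IRF8-cKO-71.

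C2 and C4b supply both parts of the classical and lectin C3 convertase. C2 stood at 19.8, 28.3 and 20.5 CPM in IRF8-cKO libraries, against 28.7, 57.1 and 41.5 CPM in WT libraries. The groups did not overlap, but IRF8-cKO-88 and WT-14 almost met (log2 fold change -0.89, SE 0.31, adjusted p = 0.132). Of its exon bases 42.8% are shared with Gm20547, so its count is uncertain as well. C4b averaged 927 ± 117 and 959.9 ± 201 CPM in IRF8-cKO and WT livers (log2 fold change -0.05, SE 0.31). Reads of C4b and its near-identical neighbour C4a may be split. C4a was at 15.5, 9.44 and 17.1 CPM in IRF8-cKO and 28.7, 67.5 and 28.4 CPM in WT libraries (log2 fold change -1.56, SE 0.40, adjusted p = 0.0723). C2 reads per C4b read were 0.0188, 0.0315 and 0.0248 in IRF8-cKO and 0.0371, 0.0487 and 0.0445 in WT libraries, without overlap (exact permutation p = 0.1, the smallest possible; 0.125 adjusted over 10 pairs). This pair was chosen after its values were seen.

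The terminal components C5 to C9 form the pore. Hc, encoding C5, stood at 429, 379 and 363 CPM in IRF8-cKO libraries, against 378, 385 and 416 CPM in WT libraries. The groups overlapped, with means of 390.4 ± 34.4 and 393 ± 20.2 CPM (log2 fold change -0.01, SE 0.27). C9, which polymerizes into the pore, stood at 295, 286 and 235 CPM in IRF8-cKO and 449, 403 and 300.4 CPM in WT libraries, lower in each IRF8-cKO library, with IRF8-cKO-71 close to WT-77 (log2 fold change -0.50, SE 0.29, adjusted p = 0.313). C6 averaged 152 ± 81.3 and 133 ± 30.6 CPM in IRF8-cKO and WT livers, and C7, which is made largely outside hepatocytes, was low at 1.41 ± 0.651 and 2.75 ± 1.74 CPM.

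Of the 3 chains of C8, the gamma chain had the most negative log2 fold change, and no chain passed in edgeR. C8g, encoding the gamma chain, a lipocalin, stood at 203, 182 and 159 CPM in IRF8-cKO libraries, against 304, 446 and 293 CPM in WT libraries (log2 fold change -0.94, SE 0.30, adjusted p = 0.107). All IRF8-cKO values were below all WT values, and the gene passed in DESeq2 (-0.94, adjusted p = 0.0293). C8a and C8b, encoding the chains that span the membrane, had log2 fold changes of -0.09 (SE 0.30) and -0.20 (SE 0.29), with overlapping groups. Reads of C8g per C8a read were 0.350, 0.477 and 0.446 in IRF8-cKO libraries and 0.656, 0.969 and 0.606 in WT libraries. Per C8b read they were 0.784, 1.05 and 0.927 in IRF8-cKO and 1.15, 1.97 and 1.44 in WT libraries. Neither ratio overlapped between groups (exact permutation p = 0.1 for each, the smallest possible; 0.125 adjusted over 10 pairs). Both C8 pairs were chosen after their values were seen. With the gene length correction the log2 fold change of C8g, a gene of 1493 bases, was -0.69 (adjusted p = 0.160).

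**Figure D3:**
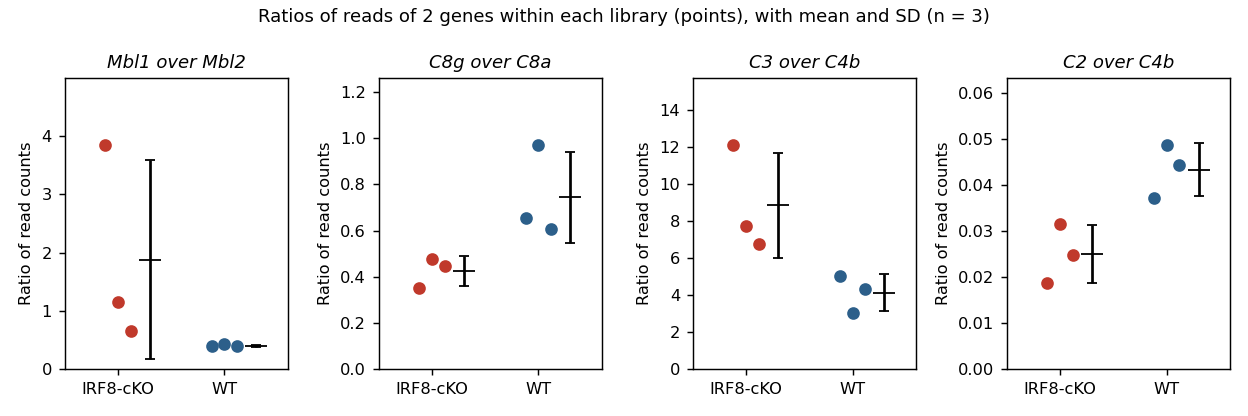
Ratio of the reads of a pair of genes within each library, IRF8-cKO (red) left of WT (blue), with mean and SD of 3 libraries. Mbl1 over Mbl2 and C3 over C4b are higher, and C8g over C8a and C2 over C4b lower, in all 3 IRF8-cKO libraries. The pairs were chosen after their values were seen.

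Receptors for the anaphylatoxins C3a and C5a, carried by myeloid cells, were rare transcripts in the lobe. C3ar1 stood at 3.45, 4.56 and 3.15 CPM in IRF8-cKO libraries, against 3.49, 0.432 and 1.59 CPM in WT libraries, with 5 to 74 reads a library (log2 fold change 0.99, SE 0.62, adjusted p = 0.342). C5ar1 stood at 4.25, 4.87 and 3.71 CPM in IRF8-cKO and 5.88, 5.44 and 8.24 CPM in WT libraries, each IRF8-cKO value below each WT value (log2 fold change -0.61, SE 0.35, adjusted p = 0.312). C5ar1 is abundant on neutrophils, and 5 of 9 tested neutrophil markers fell, while 0 rose, against 0.937% lower and 0.449% higher of all genes tested. Their summed level was 783 to 4657 CPM in IRF8-cKO and 1210.3 to 3538 CPM in WT livers, mostly from Lcn2, which injured hepatocytes also make. No marker was at 0 in all libraries. Ngp had 0 reads in IRF8-cKO-71, and Camp had 0 reads both there and in IRF8-cKO-88. Reads of C5ar1 per read of the neutrophil gene S100a8 were 0.358, 0.367 and 0.556 in IRF8-cKO and 0.100, 0.0879 and 0.120 in WT libraries (exact permutation p = 0.1, the smallest possible; 0.125 adjusted over 10 pairs). S100a8 itself had a log2 fold change of -2.57, and the 9 tested neutrophil markers ranged from -4.41 to 0.19. Ratios to the other neutrophil markers were not computed, so this separation is shown for S100a8 alone. The pair was chosen after its values were seen. The part of neutrophil content in the C5ar1 values was not tested.

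Regulators in plasma gave 0 calls among 6 genes in edgeR, against 1.39% of all genes tested. At an unadjusted p under 0.05 there were 0, against 24.1%. Their log2 fold changes, 4 positive and 2 negative, ran from -0.26 to 0.73. Clu, encoding clusterin, which binds the nascent pore, stood at 2204, 2205 and 1588 CPM in IRF8-cKO and 2237, 2099.6 and 2577 CPM in WT libraries, overlapping (log2 fold change -0.21, SE 0.32). Vtn, encoding vitronectin, another inhibitor of the pore, averaged 3083 ± 1979.8 and 2757 ± 599.9 CPM in IRF8-cKO and WT livers. Cfi, the protease gene that inactivates C3b and C4b, averaged 350.1 ± 60.7 and 420.4 ± 31.1 CPM. Its cofactor gene C4bp was at 744 CPM in IRF8-cKO-71 and at 232 and 290.0 CPM in the other IRF8-cKO libraries, against 269, 267 and 273 CPM in WT libraries. It was singled out after its values were seen, and its log2 fold change of 0.65 (SE 0.43) was -0.04 without IRF8-cKO-71. Cpn1 and Cpn2, the subunits of carboxypeptidase N, which trims anaphylatoxins, had log2 fold changes of 0.12 (SE 0.36) and 0.73 (SE 0.44), both with their highest level in IRF8-cKO-71. Without that library Cpn1 stood at -0.29, Cpn2 at 0.03 and Vtn at -0.45 on the log2 scale.

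Membrane regulators protect host cells, and 0 of 3 passed in edgeR, against 1.39% of all genes tested. At an unadjusted p under 0.05 there were 0, against 24.1%. Cd55, encoding decay-accelerating factor, stood at 7.09, 3.76 and 10.4 CPM in IRF8-cKO and 6.99, 5.27 and 5.38 CPM in WT libraries, with IRF8-cKO libraries at both ends (log2 fold change 0.27, SE 0.42). Cd59a, which blocks C9 assembly, averaged 22.7 ± 6.37 and 30.3 ± 4.61 CPM in IRF8-cKO and WT livers (log2 fold change -0.41, SE 0.29, adjusted p = 0.399). Its groups were barely separate, with IRF8-cKO-106 at 27.10 CPM and WT-14 at 27.15 CPM. Cr1l, encoding Crry, the rodent regulator of C3 convertases, averaged 34.3 ± 10.02 and 31.9 ± 6.61 CPM.

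**Figure D4:**
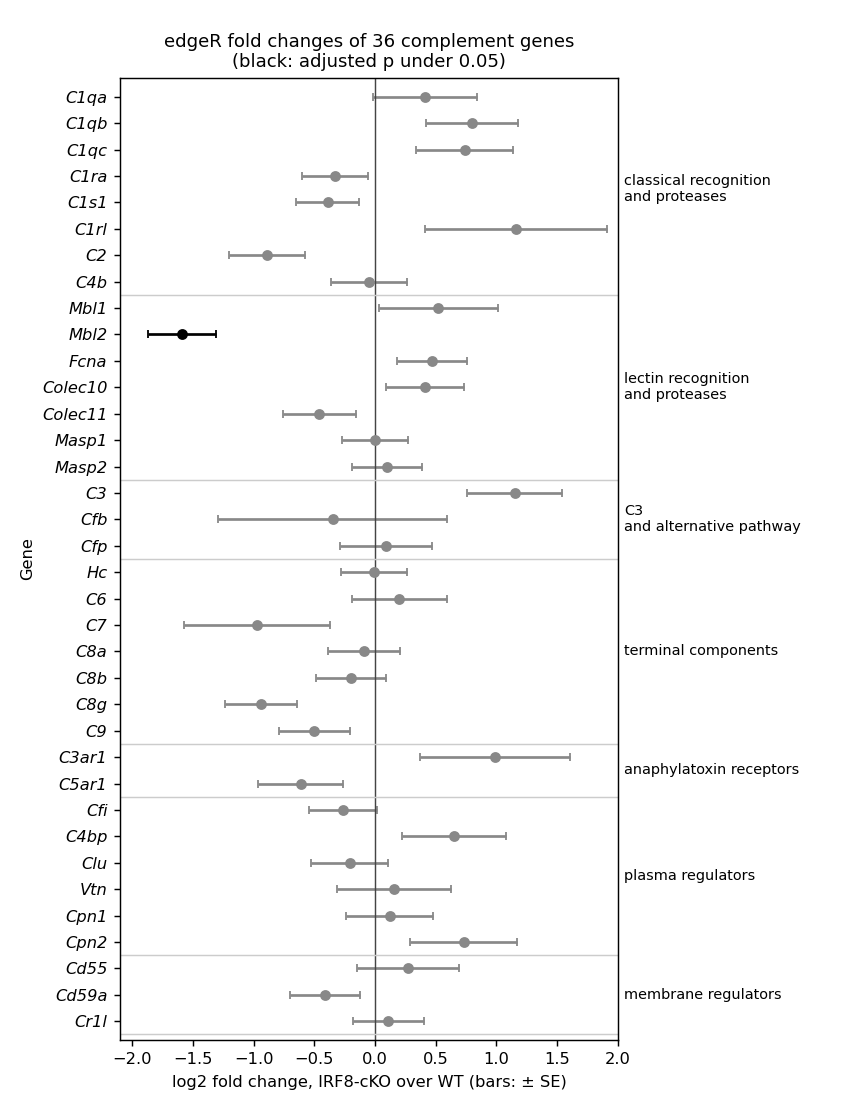
log2 fold change of IRF8-cKO over WT (x axis) with its SE for the 36 tested complement genes (y axis, by role). Mbl2, at -1.59, is the gene in black, with adjusted p under 0.05; the others lie between -0.97 (C7) and 1.16 (C1rl).

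Per length, the most abundant members were C3, Vtn and Clu in both groups. C3 stood at 1642 CPM per kb in IRF8-cKO and 742 CPM per kb in WT livers, Vtn at 1519 and 1358 CPM per kb, and Clu at 582 and 671 CPM per kb. Vtn and C3 did not keep one order: the mean of Vtn was above that of C3 in WT and below it in IRF8-cKO, and the ranges over libraries overlapped, at 676 to 2587 CPM per kb for Vtn and 691 to 2484 CPM per kb for C3. Mbl2 followed as the fourth most abundant in WT livers at 275 CPM per kb, above its paralog Mbl1 at 77.3. In IRF8-cKO livers Mbl2 was at 91.7 CPM per kb and Mbl1 at 111, and the library values of this pair overlapped there. The 4 lowest by their highest library were Cfb (0.542), C3ar1 (1.06), Cfd (1.40) and C7 (1.69 CPM per kb). The place of Cfb is uncertain, because 79.5% of its exon bases are shared with Gm20547.

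Among libraries, IRF8-cKO-71 stood apart. It held the highest CPM of all 6 libraries for 15 of 36 members (41.7%), against 24.2% of all genes tested, and IRF8-cKO-106 held the lowest for 16 of 36, against 15.6% of all genes tested. Without IRF8-cKO-71 the median log2 fold change of the 36 members was -0.30 (0.05 with all libraries), that of all genes tested was 0.01, and 10 members turned from positive to negative, C1qa, C1rl, Mbl1, Masp2, Cfp, C6, C4bp, Vtn, Cpn1 and Cr1l. Mbl2 stayed lower without it (-1.48, adjusted p = 0.0493), and C3 stood at 0.73 (adjusted p = 0.268). The pentraxin genes Apcs and Crp, which opsonize and bind C1q, shared this pattern. Apcs was at 2094, 482 and 143 CPM in IRF8-cKO libraries, against 153, 222 and 167 CPM in WT libraries, and Crp at 985, 111 and 192 CPM in IRF8-cKO against 113, 81.1 and 132 CPM in WT libraries. Neither passed (log2 fold changes 2.33 and 1.98, adjusted p = 0.140 and 0.157).

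Of 28 further complement genes 20 were tested and 0 passed in edgeR, against 1.39% of all genes tested. At an unadjusted p under 0.05 there were 10 of 20, against 24.1% of all genes tested. The 20 had a median log2 fold change of -0.35 and groups that did not overlap for 9 of 20, against 28.9% of all genes tested. Besides C4a, Apcs and Crp, 6 of these 10 are described here. Vsig4, the C3b receptor of Kupffer cells, averaged 15.8 ± 10.5 and 4.83 ± 0.352 CPM in IRF8-cKO and WT livers (log2 fold change 1.70, adjusted p = 0.0888). C5ar2, the second C5a receptor gene, averaged 2.29 ± 0.919 and 0.870 ± 0.322 CPM (1.40, adjusted p = 0.162). Cd93, a C1q-related receptor of endothelium and myeloid cells, averaged 16.6 ± 10.9 and 48.5 ± 4.69 CPM (-1.54, adjusted p = 0.0882). Cd59b averaged 0.545 and 1.91 CPM in IRF8-cKO and WT livers (-1.78, adjusted p = 0.0958), and Ighm, the IgM heavy chain gene, 3.70 and 9.77 CPM (-1.39, 0.120). Itgam, a chain of complement receptor 3, averaged 4.24 and 9.17 CPM (-1.11, 0.125). Itgam shares 68.7% of its exon bases with Gm49368, so its count is uncertain.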

How the data were processed

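Reads per gene were counted in 6 bulk libraries. Total RNA was isolated with Trizol and made into libraries with a NEBNext Ultra kit, per the labels' protocols. HISAT2 (2.0.5), featureCounts (1.5.0-p3) and build mm10 are named in the submitters' processing notes. The deposited values are raw counts without normalisation by the authors. Their strand setting, treatment of multiple mapping and gene annotation version: not given in the sources used here. Gene length is the deposited annotation column. Of 37 members, 36 have the same start and end in GENCODE M21, which was used for exon overlap.

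Groups and columns were matched by title. No library was a copy of another: within a group, pairs gave a chi-square of at least 69.9 for each degree of freedom. Genes were kept by filterByExpr (minimum count 10, total 15), leaving 13134 of 24095 with a read, and scaled by TMM (factors 0.786 to 1.32). edgeR 4.0.16 in R 4.3.3 fitted a robust quasi-likelihood model with group as the single term, two-sided, with Benjamini-Hochberg adjustment over all genes at 0.05; the biological coefficient of variation was 37.1%. A positive log2 fold change is higher in IRF8-cKO, and SE is the absolute log2 fold change over the square root of F. Tested on simulated data, the fit gave no call in the wrong direction, but it made more false calls than the 0.05 threshold names and missed most of the smaller changes. Alternatives used DESeq2 1.42.0, limma-voom (limma 3.58.1), other scalings and filters, a lowess gene length correction (span 0.5) and each library left out.

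Members and lists were chosen with earlier results of these data known. All members are named; values per library are given for those with an unadjusted p under 0.05, the 6 lowest p and 16 fixed genes. A result among the further complement genes is not reported here.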

Additional observations from a re-analysis of the deposited data

How the results depend on the processing

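No paired analysis was possible because no replicate number occurs in both groups. Median-of-ratios and upper-quartile scaling, a fit without robust shrinkage, a 1 CPM filter and removal of the 10 genes with most reads kept the direction and the call of each member tested. Over all genes, 59 were higher and 123 lower; library totals gave 39 and 43, no low-count filter 817 and 906, DESeq2 613 and 810, gene length correction 21 and 56, and limma-voom 23 higher. Of members, 0 were higher and 1 lower; 0 were lower with library totals and with gene length correction, 1 was higher without the filter, and DESeq2 gave 1 higher and 2 lower. Without a low-count filter 24095 genes were tested. Library totals moved the median over all genes to 0.25 on the log2 scale (0.03 as reported), and members without overlap were 2 higher and 3 lower (1 and 8 as reported). With 1 library left out, all genes gave 0 to 575 higher and 0 to 630 lower, members 0 to 0 higher and 0 to 1 lower, and members without overlap 1 to 6 higher and 7 to 11 lower. Both counts over all genes were lowest without WT-77 (0 and 0; 1988 at an unadjusted p under 0.05) and highest without IRF8-cKO-88.

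Some log2 fold changes that did not pass changed sign. With library totals C4b stood at 0.19, Hc at 0.21, C8a at 0.10 and Masp1 at 0.22 (0.00 as reported); without the filter Hc was 0.01 and Masp1 0.02; Cfb 0.49, Cfp -0.06 and Vtn -0.02 in limma-voom; and Cr1l -0.01 with gene length correction. With 1 library left out the ranges that crossed 0 were -0.06 to 0.81 for C1qa, -0.30 to 1.66 for C1rl, -0.36 to 0.88 for Mbl1, -0.19 to 0.26 for Masp2, -0.12 to 0.45 for Cfp, -0.32 to 0.46 for C6, -0.04 to 0.94 for C4bp, -0.45 to 0.53 for Vtn, -0.29 to 0.33 for Cpn1, -0.15 to 0.28 for Cr1l, -0.07 to 0.05 for Hc, -0.17 to 0.09 for Masp1, -0.18 to 0.11 for C4b, -0.34 to 0.05 for C8a, -0.11 to 0.57 for Cd55, -0.89 to 0.96 for Cfb, and, for the log2 difference of the C1qb to Clec4f ratio, -0.31 to 0.04. For these changes the cause was not tested. Cfb, Cfd, C3ar1 and C7 had 0 to 74 reads a library, which limits their precision; for Cfb, reads lost to the overlapping gene cannot be told apart from low expression.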
